A study of Mus musculus with 30 samples.

Results

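The collagen genes of the mouse were described in cultures and tumors of 2 colorectal carcinoma models, CT-26 and Colon 26. A gene was counted as a collagen when its symbol consisted in full of Col, a number, the letter a and a number, such as Col1a1. This rule used no measured value and found 44 genes among the 53431 genes of the count table, 11 of fibrillar collagens, 8 of basement membrane collagens, 9 of FACIT (fibril-associated collagens with interrupted triple helices) and 16 others. RNA-seq of poly-A RNA was available for 30 libraries in 8 groups, 3 cultures per cell line and 4 tumors per model and size (100, 400 and 800 mm3). CT-26 and Colon 26 cells both derive from colon carcinomas of BALB/c mice, and tumors were grown from these cells at one flank of female mice of that strain, so that a tumor holds tumor cells and host cells while a culture holds the cell line alone. No engineered allele is named for either line, and the age of the mice is not given in the sources used here. The tumors were taken as untreated, since no label ties an antibody to a sample, although their treatment text speaks of antibody dosing. The study profiled both models to learn how they differ beside their response to anti-PD-1, and the comparisons made here were Colon 26 against CT-26 in culture and at each size, tumors of 100 mm3 against culture, and tumors of 800 against 100 mm3.

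Collagens are secreted proteins in which 3 chains wind into a triple helix. Fibrillar collagens assemble into the fibers that give connective tissue its strength, basement membrane collagens form sheets under epithelia and around vessels, and FACIT decorate the surface of fibers. In carcinomas most fibrillar collagen is known to come from fibroblasts, and many cell lines that lost epithelial features make collagen themselves.

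Windows before the start sites of Col1a2 and Col3a1 are shown because these genes had the largest and the second largest mean level over all libraries, while their levels in culture differed widely. The sequences are those of RefSeq (GRCm38.p6), 5′ to 3′ on the strand of the gene, without bases that GENCODE annotates as exon, and capitals mark the motifs found, GC boxes (GGGCGG) in Col1a2 and a TATA box (TATAAA) in Col3a1. The Col1a2 stretch lies at chr6:4505370-4505492 on the plus strand and ends 126 bases before the RefSeq start site. GENCODE begins the gene farther upstream, at position 4504814, so this stretch lies within Col1a2 as annotated there. The Col3a1 stretch lies at chr1:45311288-45311537 on the plus strand and ends next to the start site.
Col1a2: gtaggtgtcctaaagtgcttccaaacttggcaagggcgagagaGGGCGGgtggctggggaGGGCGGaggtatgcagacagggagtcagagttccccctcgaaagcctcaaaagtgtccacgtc
Col3a1: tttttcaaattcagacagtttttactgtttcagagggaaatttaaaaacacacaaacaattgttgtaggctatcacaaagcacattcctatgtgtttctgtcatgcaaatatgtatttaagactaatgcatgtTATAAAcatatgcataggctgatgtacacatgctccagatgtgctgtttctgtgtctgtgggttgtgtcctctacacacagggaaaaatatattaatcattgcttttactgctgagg
The Col1a2 stretch held 2 GC boxes, which begin 205 and 188 bases before the start site, and its G and C content was 59.4%. The Col3a1 stretch held 1 TATA box, which begins 117 bases before the start site, and its G and C content was 35.2%. Searched on both strands in windows of 250 bases before the start, a GC box was present in 32.8%, a TATA box in 12.4% and a CCAAT box in 33.9% of 32841 mouse promoters, while the Col1a2 stretch has only 123 bases. A match describes the letters and is not a site shown to be bound.

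Libraries held 21384730 to 39722586 counts on genes, most of all in the Colon 26 cultures. Each of the 42 pairs of libraries within a group differed beyond counting noise, by 2.91 to 4.53 times its variance in cultures and 9.86 to 73.9 times in tumors. Each library was used as 1 replicate, although such a spread cannot tell separate samples from separate preparations of 1 RNA. Whether the cultures were grown separately is not given in the sources used here, and p-values measure the spread between these libraries. Library numbers of the tumors, of the CT-26 cultures and of the Colon 26 cultures lie in separate ranges. Among the tumors, each model and size has its own run of library numbers. A difference between the cultures of the models can thus hold an effect of batch that these data do not separate from model. The same holds for differences between tumors and cultures, and for the change of the model difference from culture to tumors. It also holds between the models and between the sizes of tumors, where library numbers likewise follow the groups. Of 6 markers of carcinoma epithelium, Epcam was at 0 in every culture and Cldn7 in those of CT-26, and their summed FPKM was 12.8 to 14.3 in CT-26 and 2.32 to 2.97 in Colon 26 cultures and 8.60 to 18.2 and 2.42 to 9.56 in their tumors.

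Levels are given as FPKM, read fragments scaled to the length of the gene and the depth of the library, which allows genes of different length to be compared. Collagens took a mean of 0.198% of all counts in CT-26 and 0.265% in Colon 26 cultures, 0.472 to 0.576% in CT-26 tumors and 0.650 to 0.792% in Colon 26 tumors. Of the 44 genes, 15 had a mean of at least 10 FPKM over all libraries, 5 a mean of 1 to 10 and 24 a mean under 1 FPKM, 16 of which were under 0.1. Col19a1, a FACIT, was at 0 in all 30 libraries. A further 9 genes, Col2a1, Col4a3, Col4a6, Col6a5, Col9a1, Col9a2, Col22a1, Col25a1 and Col26a1, passed the filter on low counts in no comparison, with no value over 0.233 FPKM. At a mean of 10 FPKM or more were 7 collagens in CT-26 and 8 in Colon 26 cultures, and 15 in tumors of 100 mm3 of either model.

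**Figure D1:**
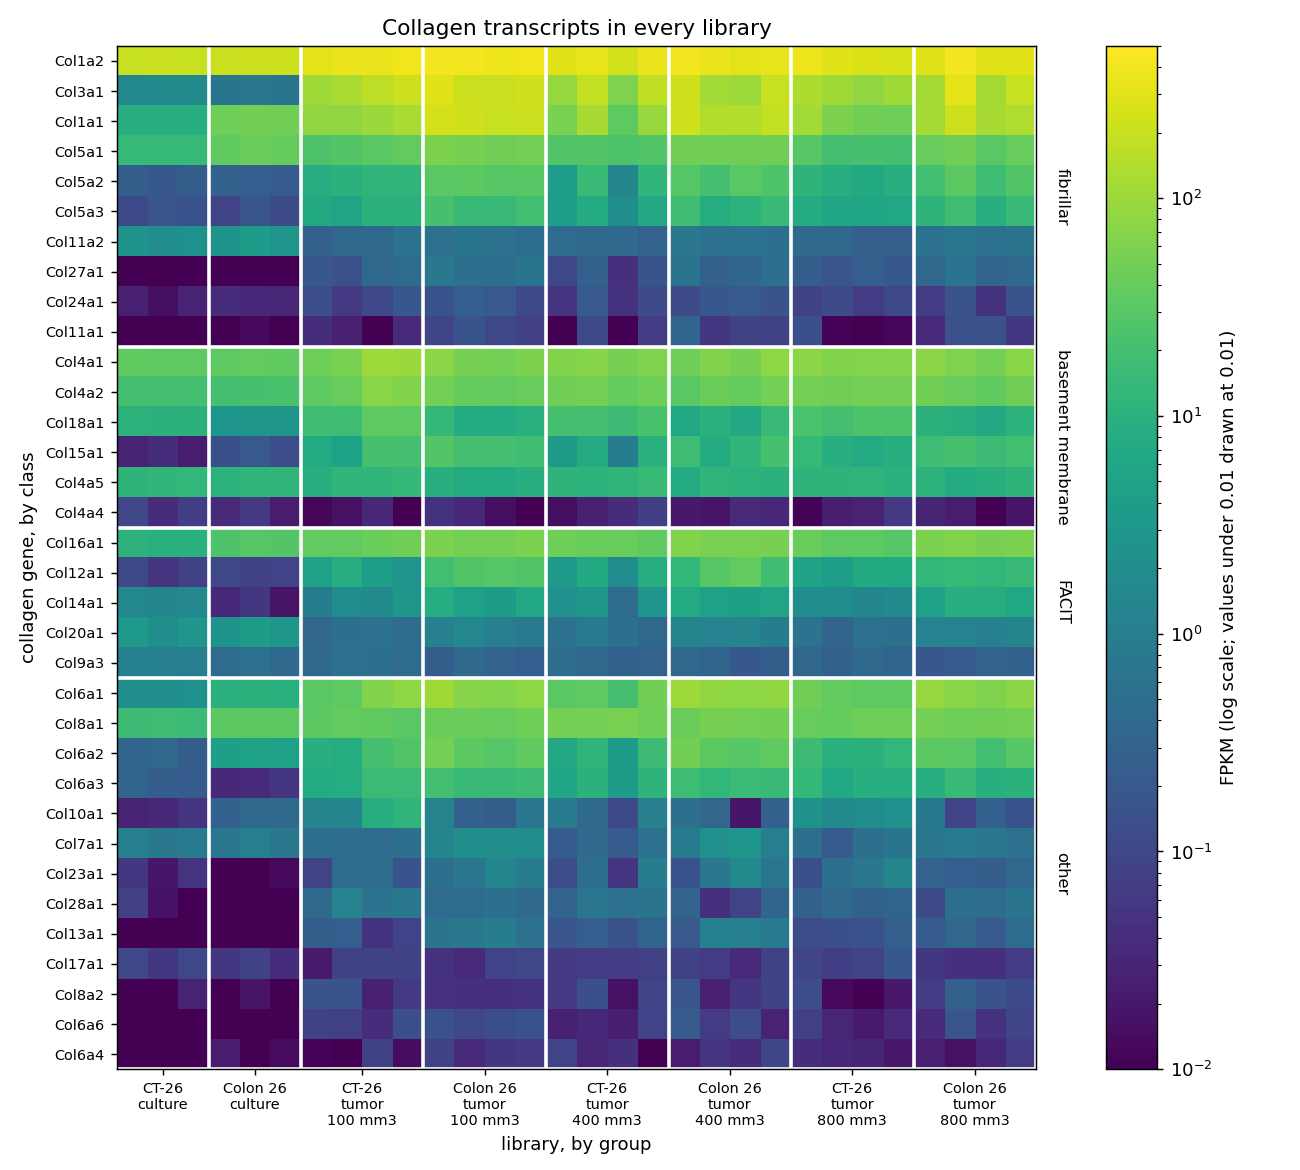
Level in each of the 30 libraries of the collagens tested in any comparison, with genes in rows ordered by class and libraries in columns by group. The 10 collagens tested in no comparison are not drawn. Color gives FPKM on a log scale, with the lowest values drawn at a common floor, and the tumor columns are brighter than the culture columns for most fibrillar genes.

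Summed over all collagens, the level was 348 ± 3.22 FPKM (SD, n = 3) in CT-26 and 458 ± 19.4 (SD, n = 3) in Colon 26 cultures. In tumors of 100, 400 and 800 mm3 it was 1017 ± 209, 861 ± 191 and 831 ± 127 FPKM in CT-26 and 1376 ± 137, 1208 ± 147 and 1141 ± 226 in Colon 26 (SD, n = 4 each). Each tumor held more collagen RNA by this sum than each culture of its model, and the order of the models was the same in culture and at each size by their means. Fibrillar genes made up 67.1% of the collagen FPKM in CT-26 and 66.9% in Colon 26 cultures, and 61.7 to 70.0% by group mean in tumors. Basement membrane genes took a larger part of the sum in CT-26 than in Colon 26, 22.5% against 15.6% in culture and 17.3% against 10.3% in tumors of 100 mm3. In tumors of 100 mm3, FACIT summed to 50.0 ± 4.52 FPKM for CT-26 and 88.2 ± 3.54 for Colon 26 (SD, n = 4 each), and the libraries of the models overlapped for this class in no group.

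**Figure D2:**
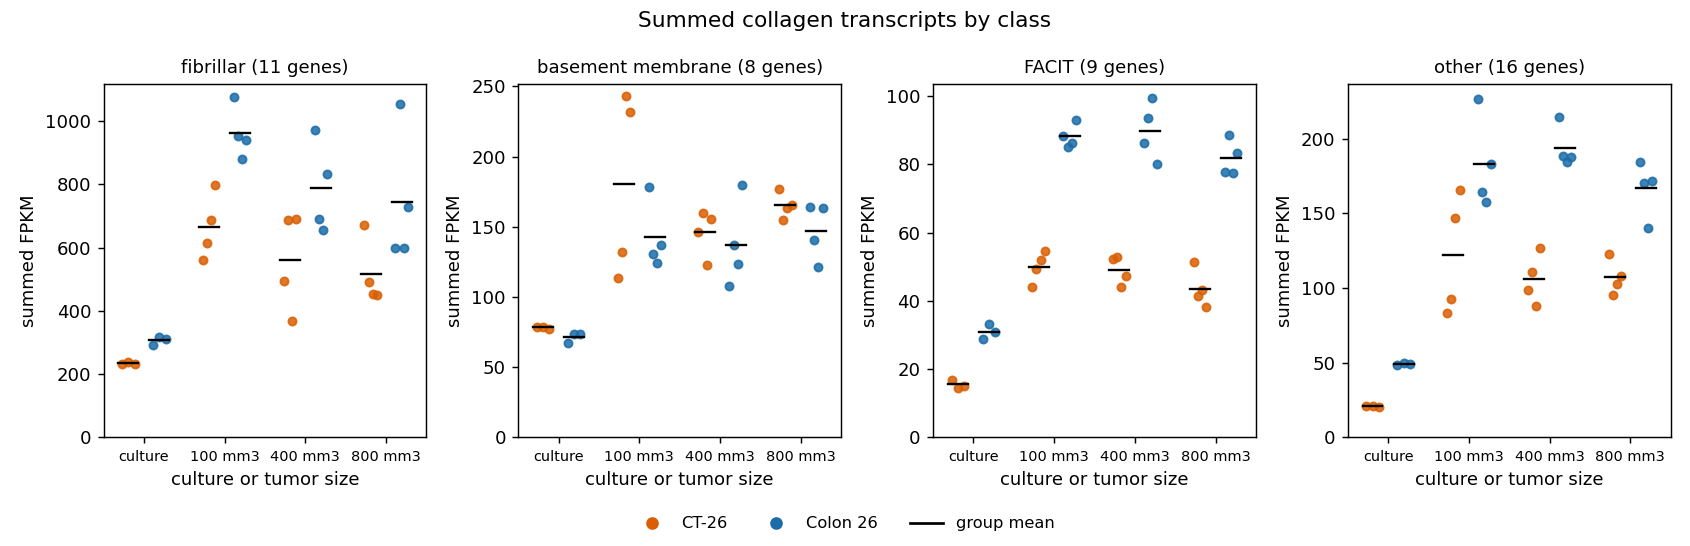
Summed FPKM of each collagen class (vertical axis) in each library, by group (horizontal axis), with CT-26 in orange and Colon 26 in blue. Points are libraries and black bars group means, and the basement membrane panel is the one in which the models lie closest.

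The models were set against each other with edgeR (quasi-likelihood test, Benjamini-Hochberg adjustment over all genes tested). Genes with an adjusted p up to 0.1 whose log2 fold change was 1 or more in size are called differentially expressed (DE), and positive values are higher in Colon 26. In culture 12 of 25 collagens tested were DE, 7 higher and 5 lower, beside 22.9% of all genes tested (10.6% higher and 12.3% lower). In tumors of 100 mm3, 14 of 32 were DE, 12 higher and 2 lower, beside 13.2% of all genes (6.17% higher and 7.06% lower). In tumors of 400 mm3, 13 of 32 were DE, 11 higher and 2 lower, beside 14.3% (6.48% higher and 7.79% lower). In tumors of 800 mm3, 11 of 32 were DE, 7 higher and 4 lower, beside 14.1% (6.5% higher and 7.62% lower). At each tumor size more DE collagens were higher than lower in Colon 26, while over all genes more were lower than higher. Median log2 fold changes of the collagens tested were 0.05 in culture and 0.57, 0.85 and 0.77 in tumors of the 3 sizes, beside 0.01, -0.00, 0.03 and -0.01 over all genes tested. Genes that failed the filter are outside these counts.

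Counts by class rest on 5 to 12 tested genes each, so that 1 gene moves a share by much. Of all genes tested, 22.9% were DE in culture and 13.2%, 14.3% and 14.1% in tumors of the 3 sizes. The 20% of basement membrane genes DE at 100 and 800 mm3, and of fibrillar genes at 800 mm3, lay near those shares. So did the 33.3% of basement membrane genes in culture. Of fibrillar genes, 3 of 7 were DE in culture (2 higher, 1 lower), 5 of 10 at 100 mm3, 4 of 10 at 400 mm3 and 2 of 10 at 800 mm3, and those in tumors were higher in Colon 26. Basement membrane genes had 2 of 6 DE in culture, 1 of 5 at 100 mm3, 2 of 5 at 400 mm3 and 1 of 5 at 800 mm3, with medians of -0.39, -0.21 and -0.25 in tumors of the 3 sizes. FACIT had 3 of 5 DE in culture, 1 higher and 2 lower, and 3, 2 and 3 of 5 DE in tumors of the 3 sizes, each higher in Colon 26. The other collagens had 4 of 7 DE in culture and 5 of 12 at each tumor size, of which 4, 4 and 2 were higher.

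Across the 4 comparisons, 24 collagens were DE at least once, and 4 were DE in each, Col1a1 and Col6a2 higher in Colon 26, Col18a1 lower, and Col14a1 lower in culture and higher in tumors. In each of the 3 tumor comparisons 6 were DE, Col1a1, Col5a2, Col6a2, Col12a1 and Col14a1 higher and Col18a1 lower in Colon 26. Both directions occurred for Col10a1, Col14a1 and Col23a1. Matching tallies across comparisons were not computed over all genes. The change of the model difference from culture to tumors of 100 mm3, tested as an interaction, was DE for 14 of 33 collagens, 9 toward Colon 26 and 5 toward CT-26, beside 17.6% of all genes tested (8.29% and 9.31%). A gene toward Colon 26 in this test rose more, or fell less, in Colon 26 than in CT-26. The cultures of each model and the tumors have library numbers in separate ranges, so an effect of batch could be part of this change.

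**Figure D3:**
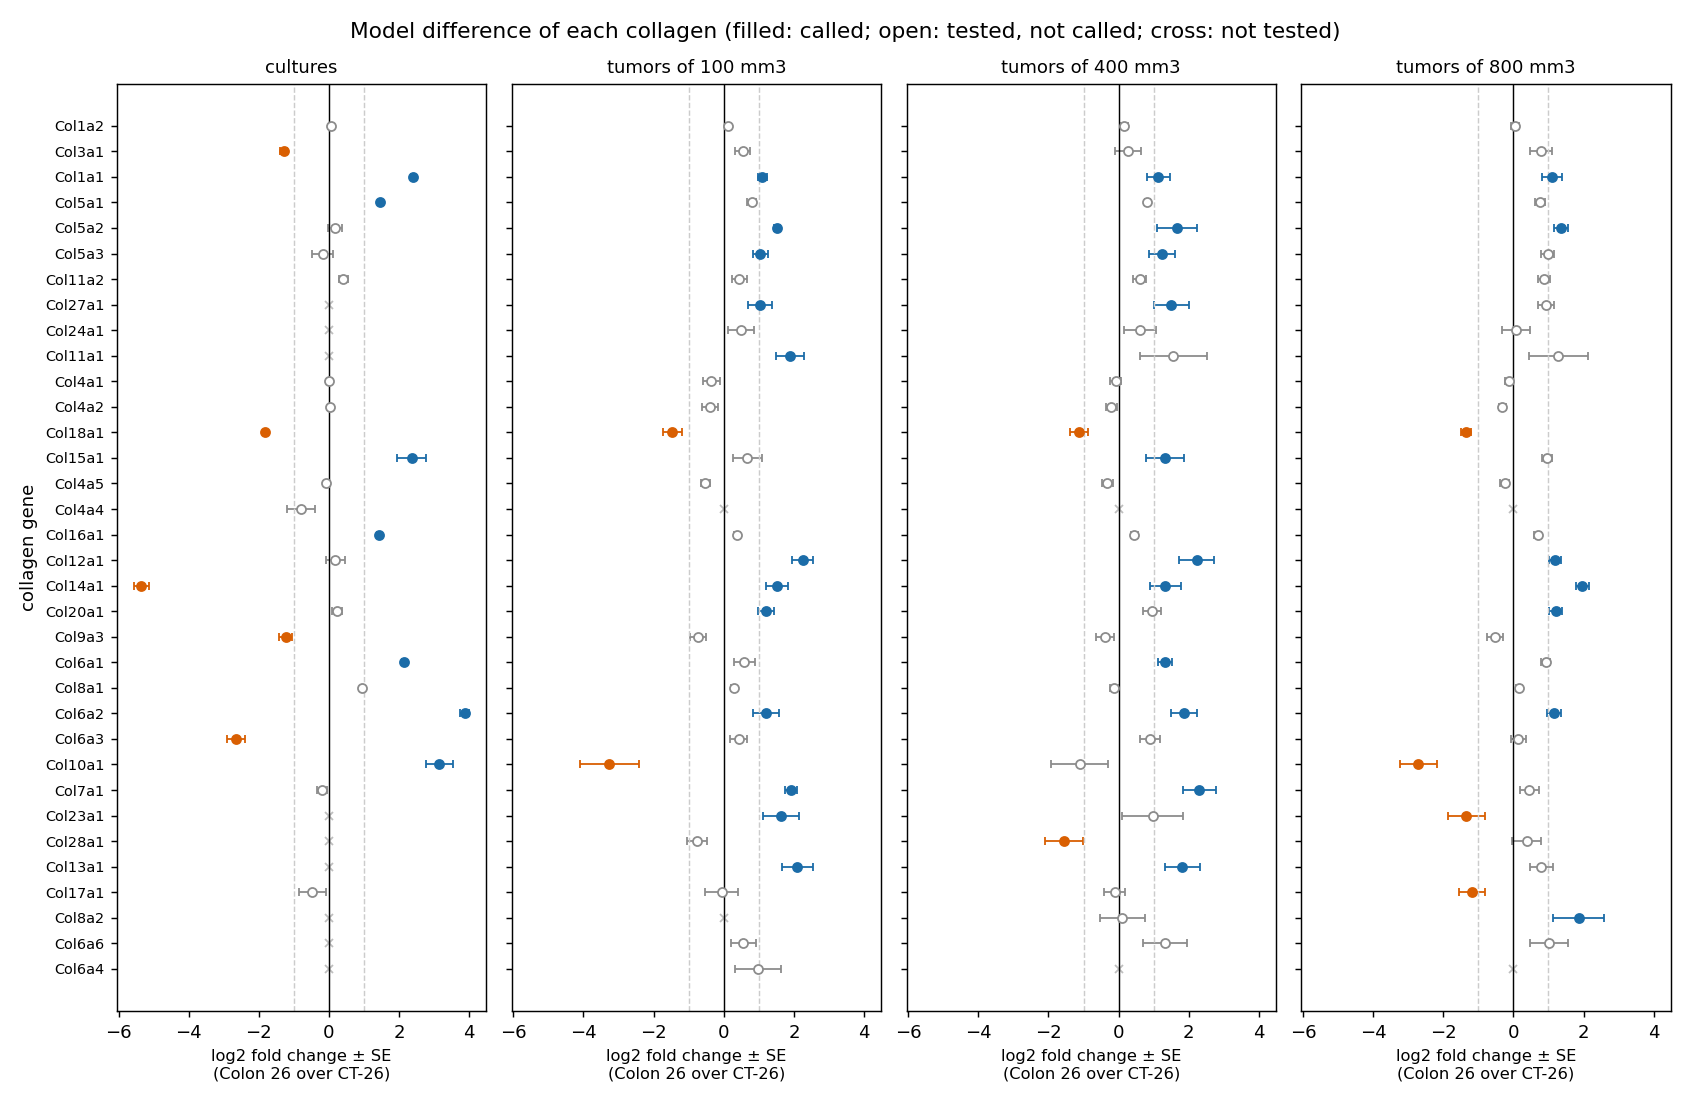
Log2 fold change of Colon 26 over CT-26 (horizontal axis) for the collagens tested in any comparison (vertical axis), in culture and in tumors of the 3 sizes. Filled points were DE (blue higher and orange lower in Colon 26), open points were tested and not DE, crosses were not tested, and dashed lines mark -1 and 1.

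Col1a2 (chr6:4504814-4541544, plus strand, GRCm38 with GENCODE vM21 as all positions of genes here) encodes the alpha-2 chain of type I collagen, the main protein of tendon, bone and scar. Col1a2 in culture was at 204, 209.5 and 205 FPKM in CT-26 and 207, 221 and 220.2 FPKM in Colon 26. At 100 mm3, Col1a2 was at 324, 360.0, 360.2 and 391 FPKM in CT-26 and 417, 417, 373 and 403 FPKM in Colon 26. The models overlapped in both, with a log2 fold change of 0.05 (SE 0.03, adjusted p = 0.12) in culture and 0.12 (SE 0.06, adjusted p = 0.15) at 100 mm3. At 400 mm3, Col1a2 was at 310.3, 331, 243 and 369 FPKM in CT-26 and 413, 359.7, 322 and 353 FPKM in Colon 26, and at 800 mm3 at 374, 290.4, 288 and 261 FPKM in CT-26 and 295, 407, 302 and 304 FPKM in Colon 26. These libraries overlapped too, with log2 fold changes of 0.15 (SE 0.11, adjusted p = 0.29) and 0.05 (SE 0.13, adjusted p = 0.78). Col1a2 alone made up 59.2% of the collagen FPKM in CT-26 and 47.1% in Colon 26 cultures, and 36.0 to 36.8% and 28.9 to 30.1% by group mean in their tumors.

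Col1a1 (chr11:94936224-94953042, plus strand) encodes the alpha-1 chain, which pairs with the product of Col1a2 in type I collagen. Col1a1 in culture was at 9.03, 9.0 and 8.95 FPKM in CT-26 and 45.1, 49.6 and 48.2 FPKM in Colon 26, without overlap and with the Colon 26 cultures higher (log2 fold change 2.39, SE 0.04, adjusted p = 1.3e-17). At 100 mm3, Col1a1 was at 88.0, 83.6, 99.3 and 128 FPKM in CT-26 and 249, 224, 202 and 207 FPKM in Colon 26. The lowest Colon 26 tumor lay above the highest CT-26 tumor (log2 fold change 1.10, SE 0.13, adjusted p = 0.00015). At 400 mm3, Col1a1 was at 57.6, 119, 34.3 and 95.8 FPKM in CT-26 and 231, 141, 142 and 186 FPKM in Colon 26, and CT-26 replicate 3 was the lowest of its group. At 800 mm3, Col1a1 was at 114, 59.1, 48.3 and 46.3 FPKM in CT-26 and 115, 220.2, 122 and 141 FPKM in Colon 26. Colon 26 was higher without overlap at both sizes, with log2 fold changes of 1.14 (SE 0.33, adjusted p = 0.022) and 1.10 (SE 0.29, adjusted p = 0.0096). The fold change at 400 mm3 fell under the minimum without CT-26 replicate 3 (0.90) or Colon 26 replicate 1 (0.998). At 800 mm3 it did so without CT-26 replicate 3 (0.98), CT-26 replicate 4 (0.96) or Colon 26 replicate 2 (0.88).

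The chains of type I collagen were therefore unevenly represented. The ratio of Col1a1 to Col1a2 in FPKM was 0.0436 ± 0.000637 in CT-26 and 0.221 ± 0.00357 in Colon 26 cultures (SD, n = 3 each). In tumors the group means were 0.213 to 0.277 in CT-26 and 0.449 to 0.548 in Colon 26. The alpha-1 chain, of which a type I molecule holds more copies, was thus the less abundant RNA in every group by its mean. From culture to tumors of 100 mm3 the difference between the models in Col1a1 became smaller (interaction -1.28, SE 0.16, adjusted p = 1.8e-05), with a rise of 3.47 in CT-26 and 2.24 in Colon 26 on the log2 scale.

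Col3a1 (chr1:45311538-45349706, plus strand) encodes the chain of type III collagen, which forms thin fibers in skin, vessels and granulation tissue. Its exons overlap those of Gm47302 by 141 bases on the same strand, so some reads could be shared. Col3a1 in culture was at 1.55, 1.68 and 1.74 FPKM in CT-26 and 0.658, 0.734 and 0.665 FPKM in Colon 26, and Colon 26 was lower without overlap (log2 fold change -1.29, SE 0.10, adjusted p = 2.9e-09). At 100 mm3, Col3a1 was at 108, 127, 173 and 219 FPKM in CT-26 and 296, 207, 209.8 and 227 FPKM in Colon 26. These ranges overlapped, and the fold change did not reach the minimum (log2 fold change 0.54, SE 0.21, adjusted p = 0.058). At 400 mm3, Col3a1 was at 91.3, 185, 61.5 and 179.5 FPKM in CT-26 and 228, 110.4, 101 and 204 FPKM in Colon 26, and at 800 mm3 at 132, 105, 81.5 and 105 FPKM in CT-26 and 116, 327, 115 and 201 FPKM in Colon 26, with overlap at both sizes. The log2 fold changes there were 0.26 (SE 0.37, adjusted p = 0.6) and 0.78 (SE 0.31, adjusted p = 0.055). Relative to Col1a2, Col3a1 was at 0.00802 in CT-26 and 0.00318 in Colon 26 cultures and at group means of 0.350 to 0.583 in tumors. The change of the model difference from culture to 100 mm3 was DE (interaction 1.84, SE 0.30, adjusted p = 0.00023).

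Col5a2 (chr1:45374321-45503282, minus strand) encodes a chain of type V collagen, which sits inside type I fibers and limits their diameter. Col5a2 in culture was at 0.240, 0.195 and 0.239 FPKM in CT-26 and 0.272, 0.257 and 0.236 FPKM in Colon 26, with overlap (log2 fold change 0.17, SE 0.19, adjusted p = 0.43). At 100 mm3, Col5a2 was at 8.43, 10.3, 11.7 and 12.1 FPKM in CT-26 and 32.0, 33.3, 30.2 and 30.1 FPKM in Colon 26. Each Colon 26 tumor was above each CT-26 tumor (log2 fold change 1.52, SE 0.10, adjusted p = 6.3e-06), and the change of the model difference from culture was DE (interaction 1.35, SE 0.19, adjusted p = 6.7e-05). In a fit of all 30 libraries this interaction was 1.41 and did not pass the test (adjusted p = 0.154). At 400 mm3, Col5a2 was at 4.37, 15.0, 1.44 and 12.2 FPKM in CT-26 and 28.6, 20.9, 31.7 and 25.6 FPKM in Colon 26, and at 800 mm3 at 11.3, 8.59, 7.21 and 9.21 FPKM in CT-26 and 19.2, 32.9, 17.7 and 26.9 FPKM in Colon 26. Colon 26 was again higher without overlap, by 1.66 (SE 0.57, adjusted p = 0.043) and 1.35 (SE 0.20, adjusted p = 0.00027) on the log2 scale. Without CT-26 replicate 1 the call at 400 mm3 was lost, at a log2 fold change of 1.46 and an adjusted p of 0.108.

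Col5a3 (chr9:20770050-20815067, minus strand) encodes a less common chain of type V collagen. Col5a3 in culture was at 0.115, 0.176 and 0.150 FPKM in CT-26 and 0.0907, 0.182 and 0.123 FPKM in Colon 26, with overlap (log2 fold change -0.18, SE 0.29, adjusted p = 0.59). At 100 mm3, Col5a3 was at 7.20, 5.49, 10.4 and 10.3 FPKM in CT-26 and 21.7, 15.2, 15.5 and 18.7 FPKM in Colon 26. Colon 26 was higher without overlap (log2 fold change 1.04, SE 0.20, adjusted p = 0.0026), although the fold change fell under the minimum without CT-26 replicate 2 (0.89) or Colon 26 replicate 1 (0.94). At 400 mm3, Col5a3 was at 4.16, 7.74, 2.22 and 6.82 FPKM in CT-26 and 18.4, 8.02, 10.7 and 14.5 FPKM in Colon 26, and at 800 mm3 at 7.89, 5.71, 5.94 and 6.41 FPKM in CT-26 and 11.2, 18.0, 9.21 and 14.9 FPKM in Colon 26. Without overlap at either size, Colon 26 was DE at 400 mm3 (1.25, SE 0.37, adjusted p = 0.022) and just under the minimum fold change at 800 mm3 (0.98, SE 0.19, adjusted p = 0.0016). The interaction from culture to 100 mm3 was 1.23 (SE 0.48, adjusted p = 0.051), and this call was lost without CT-26 culture replicate 2 (adjusted p = 0.167) or Colon 26 culture replicate 1 (adjusted p = 0.116) and in a fit of all 30 libraries (adjusted p = 0.135).

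**Figure D4:**
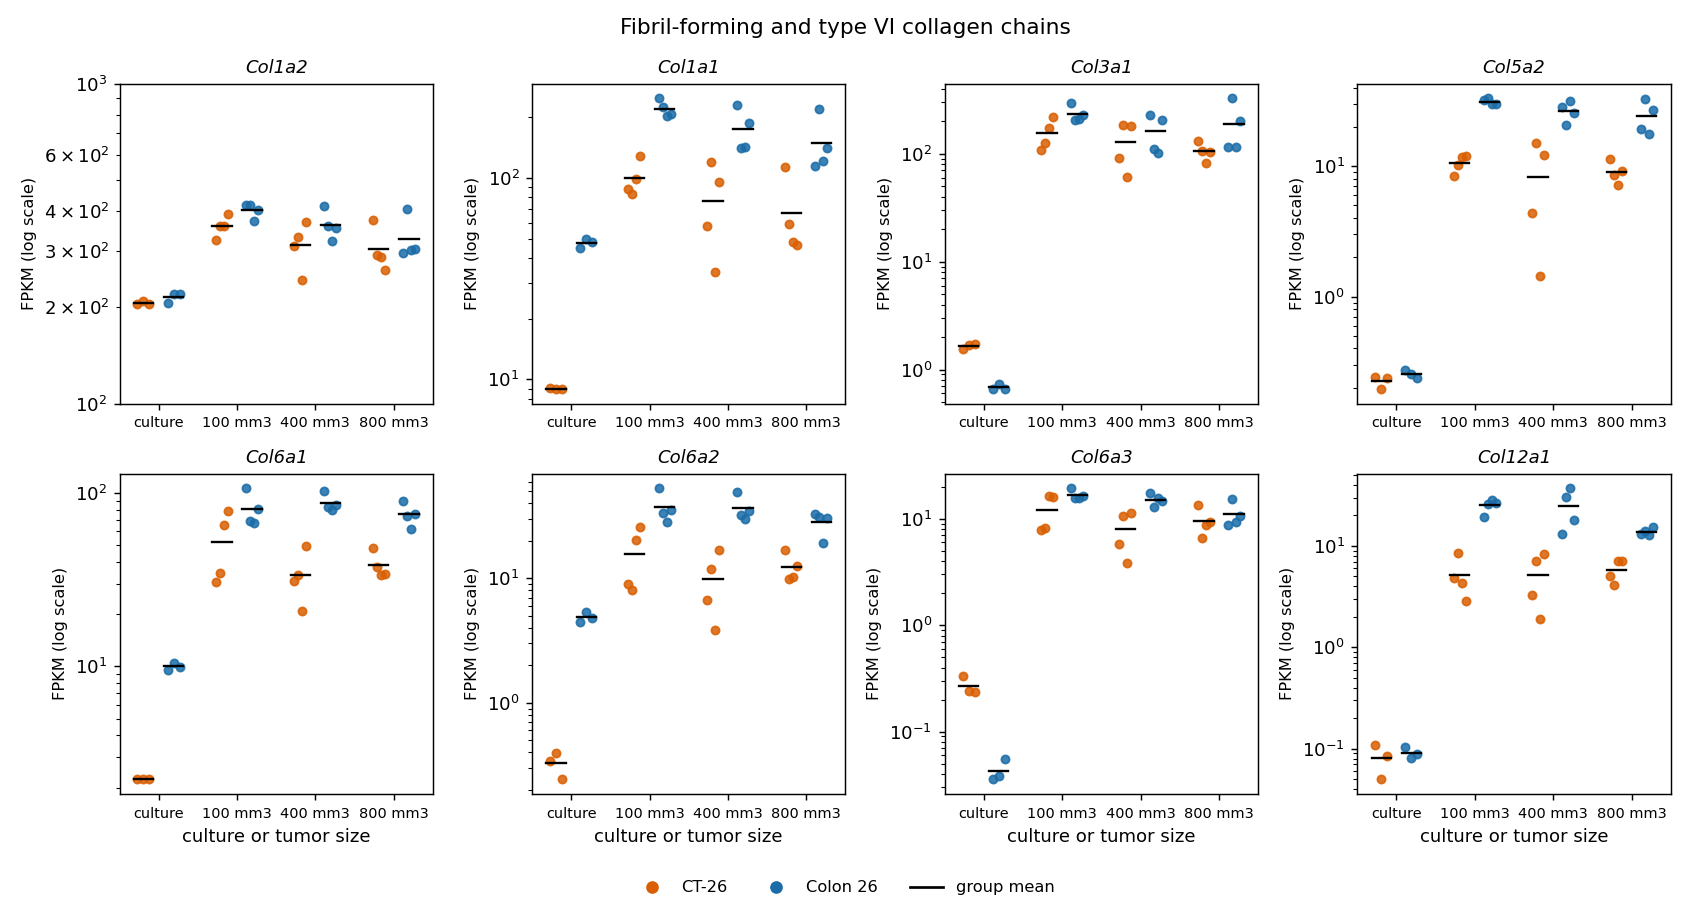
FPKM (vertical axis, log scale) in each library by group for Col1a2, Col1a1, Col3a1, Col5a2, Col6a1, Col6a2, Col6a3 and Col12a1, with CT-26 in orange, Colon 26 in blue and black bars at group means. Col1a2 lies at 204 to 221 FPKM in the 6 cultures, while Col3a1, Col5a2, Col6a3 and Col12a1 lie under 2 FPKM there and over 1 FPKM in each tumor.

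Among the other fibrillar genes, Col5a1, the chain that every common form of type V contains, ran from 13.9 to 14.2 FPKM in CT-26 and 36.4 to 41.5 in Colon 26 cultures (log2 fold change 1.45, SE 0.04, adjusted p = 7e-15). Each Colon 26 tumor was above each CT-26 tumor of its size for Col5a1, for example 47.8 to 59.4 against 24.7 to 37.0 FPKM at 100 mm3, but the log2 fold changes of 0.79 (SE 0.12, adjusted p = 0.00052), 0.82 (SE 0.06, adjusted p = 1.9e-05) and 0.75 (SE 0.14, adjusted p = 0.0014) were under the minimum. Col11a1, a chain of the type XI collagen of cartilage fibers, was DE in tumors of 100 mm3 (log2 fold change 1.89, SE 0.41, adjusted p = 0.0043) at levels of 0.0102 to 0.0420 in CT-26 and 0.0774 to 0.165 FPKM in Colon 26. Col27a1, a minor fibrillar collagen, was DE at 100 mm3 (log2 fold change 1.04, SE 0.34, adjusted p = 0.033) and at 400 mm3 (log2 fold change 1.51, SE 0.49, adjusted p = 0.034, with overlap), at no more than 0.770 FPKM in any library. Its fold change at 100 mm3 fell under the minimum without CT-26 replicate 1 (0.91), CT-26 replicate 2 (0.81) or Colon 26 replicate 1 (0.93). Col11a2 and Col24a1 were DE in no comparison of the models.

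The basement membrane genes Col4a1 (chr8:11198423-11312826, minus strand) and Col4a2 (chr8:11312805-11449287, plus strand) encode the chains of the common type IV network and are transcribed away from each other, with 22 bases of exon overlapping on opposite strands. Col4a1 in culture was at 35.1, 34.6 and 34.4 FPKM in CT-26 and 33.6, 36.6 and 36.2 FPKM in Colon 26. Col4a2 in culture was at 20.7, 20.8 and 19.6 FPKM in CT-26 and 19.6, 21.7 and 22.1 FPKM in Colon 26. The models overlapped for both genes, with log2 fold changes of 0.02 (SE 0.03, adjusted p = 0.68) and 0.04 (SE 0.04, adjusted p = 0.45). At 100 mm3, Col4a1 was at 46.2, 56.0, 104 and 97.9 FPKM in CT-26 and 75.8, 55.5, 52.7 and 60.2 FPKM in Colon 26 and Col4a2 at 33.6, 40.9, 72.2 and 65.6 FPKM in CT-26 and 51.3, 38.9, 36.6 and 39.9 FPKM in Colon 26. CT-26 replicates 3 and 4 were the highest of the 8 tumors for Col4a1 and for Col4a2. They were also the largest of these tumors, at 136 and 146 mm3, against 103 and 106 mm3 for CT-26 replicates 1 and 2. The Colon 26 tumors of this group measured 103 to 125 mm3. The part of volume in the levels at 100 mm3 was not tested. At 400 mm3, Col4a1 was at 63.5, 69.4, 53.6 and 62.5 FPKM in CT-26 and 45.0, 63.9, 55.2 and 80.7 FPKM in Colon 26 and Col4a2 at 47.3, 51.1, 39.6 and 45.9 FPKM in CT-26 and 31.7, 43.5, 38.2 and 52.5 FPKM in Colon 26. At 800 mm3, Col4a1 was at 76.0, 64.9, 66.3 and 68.2 FPKM in CT-26 and 75.7, 61.7, 52.3 and 74.2 FPKM in Colon 26 and Col4a2 at 52.6, 48.5, 52.5 and 53.0 FPKM in CT-26 and 49.1, 40.2, 35.9 and 47.9 FPKM in Colon 26. Libraries of the models overlapped at each size for both genes and neither was DE, with log2 fold changes from -0.36 to -0.08 for Col4a1 and from -0.39 to -0.21 for Col4a2. The ratio of Col4a1 to Col4a2 in FPKM had group means of 1.33 to 1.70, a narrower range than that of the type I chains.

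Col18a1 (chr10:77052178-77166548, minus strand) encodes a proteoglycan collagen of basement membranes whose C-terminal fragment is endostatin. Col18a1 in culture was at 11.0, 10.6 and 10.3 FPKM in CT-26 and 2.90, 3.05 and 3.02 FPKM in Colon 26, lower in Colon 26 without overlap (log2 fold change -1.82, SE 0.04, adjusted p = 2.2e-15). At 100 mm3, Col18a1 was at 17.8, 17.6, 33.7 and 34.7 FPKM in CT-26 and 13.6, 7.77, 7.86 and 9.52 FPKM in Colon 26. Colon 26 was lower without overlap here as well (log2 fold change -1.47, SE 0.27, adjusted p = 0.002). At 400 mm3, Col18a1 was at 20.2, 20.8, 16.6 and 22.2 FPKM in CT-26 and 6.26, 9.86, 6.80 and 15.1 FPKM in Colon 26, and at 800 mm3 at 23.2, 20.9, 25.1 and 24.8 FPKM in CT-26 and 10.6, 9.40, 6.93 and 11.1 FPKM in Colon 26. Both sizes showed lower values in Colon 26 without overlap, at log2 fold changes of -1.13 (SE 0.25, adjusted p = 0.0061) and -1.36 (SE 0.14, adjusted p = 3.1e-05). Without Colon 26 replicate 1 the fold change at 400 mm3 was -0.97, under the minimum. Endothelial markers, 8 genes summed, ran from 19.2 to 67.9 FPKM over the CT-26 tumors and 34.1 to 54.4 over the Colon 26 tumors, and from 2.54 to 2.88 in CT-26 and 0.0825 to 0.142 in Colon 26 cultures, where Cldn5 was at 0 in each library and Emcn in each of Colon 26. At 100 mm3 these markers were, in replicate order, at 19.2, 25.7, 67.9 and 53.1 FPKM in CT-26 and 54.4, 43.3, 45.2 and 40.1 in Colon 26. Their part in the level of Col18a1 in tumors was not tested.

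Col15a1, the close relative of Col18a1, was higher in Colon 26 cultures (log2 fold change 2.36, SE 0.41, adjusted p = 6.4e-05), where its level was 0.129 to 0.202 FPKM against 0.0237 to 0.0409 in CT-26, and no CT-26 culture held more than 4 counts. This call was lost in a fit of all 30 libraries (2.30, adjusted p = 0.195). In tumors Col15a1 was at 5.38 to 21.5 in CT-26 and 18.1 to 28.0 FPKM in Colon 26 at 100 mm3. Between the models it was DE at 400 mm3 alone (log2 fold change 1.33, SE 0.54, adjusted p = 0.073), with overlap, and the call was lost without CT-26 replicate 1 (1.21, adjusted p = 0.167), CT-26 replicate 3 (log2 fold change 0.996, under the minimum) or any of Colon 26 replicates 1, 3 and 4 (adjusted p = 0.107, 0.121 and 0.171). Col4a5, a chain of type IV collagen encoded on the X chromosome, was between 7.34 and 14.7 FPKM in all libraries and DE in no comparison.

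Col12a1 (chr9:79598991-79718831, minus strand) encodes a long FACIT that binds type I fibers in tissue under tension. Col12a1 in culture was at 0.110, 0.0499 and 0.0847 FPKM in CT-26 and 0.103, 0.0815 and 0.0897 FPKM in Colon 26, with overlap (log2 fold change 0.18, SE 0.28, adjusted p = 0.56). At 100 mm3, Col12a1 was at 4.79, 8.51, 4.29 and 2.87 FPKM in CT-26 and 19.2, 26.2, 28.6 and 26.7 FPKM in Colon 26. Each Colon 26 tumor exceeded each CT-26 tumor (log2 fold change 2.25, SE 0.31, adjusted p = 0.00035). At 400 mm3, Col12a1 was at 3.31, 7.06, 1.89 and 8.37 FPKM in CT-26 and 13.2, 30.3, 36.9 and 17.8 FPKM in Colon 26, and at 800 mm3 at 5.03, 4.15, 7.16 and 7.03 FPKM in CT-26 and 13.1, 14.1, 12.9 and 15.3 FPKM in Colon 26. Colon 26 was higher without overlap at both sizes, by 2.23 (SE 0.49, adjusted p = 0.0058) and 1.18 (SE 0.16, adjusted p = 0.0002) on the log2 scale. The interaction from culture to 100 mm3 was 2.07 (SE 0.71, adjusted p = 0.03), and without CT-26 culture replicate 1 it was 1.80 (adjusted p = 0.106).

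Col14a1 (chr15:55307750-55520803, plus strand) encodes a FACIT of mature fibers that also binds decorin. Col14a1 in culture was at 1.56, 1.44 and 1.52 FPKM in CT-26 and 0.0342, 0.0550 and 0.0177 FPKM in Colon 26, so that CT-26 was higher by a wide margin (log2 fold change -5.35, SE 0.21, adjusted p = 1.1e-12). At 100 mm3, Col14a1 was at 0.978, 2.0, 1.76 and 3.03 FPKM in CT-26 and 8.09, 4.82, 3.90 and 6.18 FPKM in Colon 26. The order of the models was turned, with each Colon 26 tumor above each CT-26 tumor (log2 fold change 1.52, SE 0.32, adjusted p = 0.0042). At 400 mm3, Col14a1 was at 2.38, 3.13, 0.464 and 2.80 FPKM in CT-26 and 7.61, 4.95, 4.75 and 5.54 FPKM in Colon 26, and at 800 mm3 at 2.04, 1.91, 1.41 and 1.74 FPKM in CT-26 and 4.93, 9.29, 8.55 and 6.29 FPKM in Colon 26. Colon 26 remained above CT-26 without overlap, by 1.34 (SE 0.45, adjusted p = 0.038) and 1.96 (SE 0.19, adjusted p = 1.7e-05). The change of the model difference from culture was the largest toward Colon 26 among the collagens called in that test (interaction 6.88, SE 0.57, adjusted p = 5.1e-07). Against culture, Col14a1 rose in Colon 26 tumors of 100 mm3 by 7.39 and was not DE in CT-26 (0.46, SE 0.31, adjusted p = 0.21).

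Col16a1 (chr4:130047840-130099283, plus strand) encodes a FACIT found near cell surfaces and at the margin of basement membranes. Col16a1 in culture was at 10.7, 9.67 and 9.58 FPKM in CT-26 and 25.5, 28.5 and 27.1 FPKM in Colon 26, higher in Colon 26 without overlap (log2 fold change 1.42, SE 0.04, adjusted p = 4.2e-14). At 100 mm3, Col16a1 was at 37.5, 37.6, 44.8 and 47.7 FPKM in CT-26 and 59.6, 52.2, 52.5 and 59.1 FPKM in Colon 26. At 400 mm3, Col16a1 was at 45.5, 41.4, 40.8 and 35.5 FPKM in CT-26 and 63.9, 56.9, 56.3 and 55.4 FPKM in Colon 26, and at 800 mm3 at 43.4, 34.6, 33.6 and 28.6 FPKM in CT-26 and 58.3, 63.9, 54.4 and 59.9 FPKM in Colon 26. No size showed overlap, but the differences of 0.37 (SE 0.09, adjusted p = 0.0066), 0.44 (SE 0.10, adjusted p = 0.0058) and 0.69 (SE 0.11, adjusted p = 0.00041) stayed under the minimum fold change. The narrowing from culture to 100 mm3 was DE (interaction -1.05, SE 0.11, adjusted p = 4.4e-06), though without CT-26 replicate 4 at 100 mm3 (-0.99) or Colon 26 replicate 2 (-0.99) it was under the minimum. It was so too with RLE factors (-0.987), with at least 10 counts in each library (-0.993), by DESeq2 (-0.997), in a fit of all 30 libraries (-0.992) and by limma on log2(FPKM + 1) (-0.940).

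The remaining FACIT that passed the filter were Col20a1 and Col9a3. Col20a1 was DE and higher in Colon 26 tumors of 100 mm3 (log2 fold change 1.20, SE 0.22, adjusted p = 0.0018) and 800 mm3 (log2 fold change 1.21, SE 0.19, adjusted p = 0.00047), at 0.350 to 0.603 FPKM in CT-26 and 0.897 to 1.52 in Colon 26 at 100 mm3. Its exons overlap those of BX649560.1 by 79 bases, so reads could be shared. Col9a3, a chain of the type IX collagen of cartilage, was lower in Colon 26 cultures (log2 fold change -1.24, SE 0.18, adjusted p = 7.9e-06), at 0.407 to 0.561 against 1.02 to 1.15 FPKM, and its partners Col9a1 and Col9a2 were at 0 in 26 and 22 of the 30 libraries. Exons of Col9a3 and Tcfl5 overlap by 234 bases.

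Type VI collagen, which forms beaded filaments around cells, needs chains of Col6a1 (chr10:76708792-76726168, minus strand), Col6a2 (chr10:76595762-76623630, minus strand) and Col6a3 (chr1:90765923-90843971, minus strand) in its classic form. In culture, Col6a1 was at 2.24, 2.23 and 2.25 FPKM in CT-26 and 9.53, 10.5 and 9.97 FPKM in Colon 26, and Col6a2 was at 0.344, 0.392 and 0.243 FPKM in CT-26 and 4.44, 5.33 and 4.79 FPKM in Colon 26. Both were higher in Colon 26 without overlap by log2 fold changes of 2.14 (SE 0.05, adjusted p = 4.1e-15) for Col6a1 and 3.87 (SE 0.13, adjusted p = 9.4e-14) for Col6a2. Col6a3 in culture was at 0.331, 0.242 and 0.234 FPKM in CT-26 and 0.0355, 0.0386 and 0.0548 FPKM in Colon 26, lower in Colon 26 without overlap (log2 fold change -2.65, SE 0.25, adjusted p = 6.6e-08). The chains of one molecule therefore differed in opposite directions, and the ratio of Col6a3 to Col6a1 in FPKM was 0.120 ± 0.0240 in CT-26 and 0.00430 ± 0.00104 in Colon 26 cultures (SD, n = 3 each).

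At 100 mm3, Col6a1 was at 30.8, 34.4, 65.0 and 78.1 FPKM in CT-26 and 106, 68.9, 66.5 and 80.3 FPKM in Colon 26. Col6a2 was at 9.07, 8.03, 20.2 and 26.0 FPKM in CT-26 and 52.8, 33.3, 28.6 and 35.3 FPKM in Colon 26. Col6a3 was at 7.94, 8.26, 16.3 and 16.1 FPKM in CT-26 and 19.3, 15.6, 15.6 and 16.5 FPKM in Colon 26. CT-26 replicates 3 and 4 were the highest of their group for the 3 chains, and the models overlapped for Col6a1 and Col6a3. Col6a2 was DE (log2 fold change 1.21, SE 0.37, adjusted p = 0.024), while Col6a1 and Col6a3 were at 0.59 (SE 0.29, adjusted p = 0.13) and 0.42 (SE 0.23, adjusted p = 0.17). Without CT-26 replicate 2 the fold change of Col6a2 was 0.99. The ratio of Col6a3 to Col6a1 was 0.239 ± 0.0229 in CT-26 and 0.212 ± 0.0231 in Colon 26 (SD, n = 4 each), much closer than in culture. The interaction from culture was DE for each chain, at -1.55 (SE 0.39, adjusted p = 0.005) for Col6a1, -2.66 (SE 0.60, adjusted p = 0.0026) for Col6a2 and 3.08 (SE 0.51, adjusted p = 0.00024) for Col6a3.

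At 400 mm3, Col6a1 was at 31.1, 33.6, 20.9 and 49.2 FPKM in CT-26 and 103, 83.3, 79.3 and 84.6 FPKM in Colon 26. Col6a2 was at 6.72, 11.9, 3.82 and 16.8 FPKM in CT-26 and 49.4, 32.5, 30.2 and 35.1 FPKM in Colon 26. Col6a3 was at 5.81, 10.7, 3.83 and 11.5 FPKM in CT-26 and 17.3, 13, 15.7 and 14.8 FPKM in Colon 26. Col6a1 and Col6a2 were DE and higher in Colon 26 without overlap, by 1.33 (SE 0.20, adjusted p = 0.00069) and 1.87 (SE 0.37, adjusted p = 0.0035), and Col6a3 was under the minimum fold change (0.88, SE 0.29, adjusted p = 0.033). At 800 mm3, Col6a1 was at 47.9, 37.5, 33.7 and 34.0 FPKM in CT-26 and 89.3, 73.8, 62.2 and 75.5 FPKM in Colon 26. Col6a2 was at 16.8, 9.93, 10.3 and 12.7 FPKM in CT-26 and 33.0, 31.3, 19.2 and 30.3 FPKM in Colon 26. Col6a3 was at 13.6, 6.66, 8.74 and 9.34 FPKM in CT-26 and 8.73, 15.5, 9.26 and 10.6 FPKM in Colon 26. There Col6a2 alone of the 3 was DE (log2 fold change 1.15, SE 0.20, adjusted p = 0.00077), Col6a1 being at 0.92 (SE 0.13, adjusted p = 0.00028) without overlap and Col6a3 at 0.14 (SE 0.22, adjusted p = 0.61) with overlap. The later chains Col6a4, Col6a5 and Col6a6, which can take the place of Col6a3, were at no more than 0.219 FPKM in any library and were DE between the models nowhere.

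Col8a1 (chr16:57624258-57754737, minus strand) encodes a short-chain collagen of vessel walls and of the cornea. Col8a1 in culture was at 16.9, 17.3 and 16.1 FPKM in CT-26 and 33.3, 32.5 and 32.8 FPKM in Colon 26, without overlap but under the minimum fold change (log2 fold change 0.95, SE 0.04, adjusted p = 4e-13). At 100 mm3, Col8a1 was at 32.8, 37.7, 35.2 and 31.7 FPKM in CT-26 and 44.0, 41.9, 41.3 and 45.6 FPKM in Colon 26. At 400 mm3, Col8a1 was at 52.9, 52.1, 57.7 and 45.4 FPKM in CT-26 and 42.3, 54.4, 53.0 and 49.4 FPKM in Colon 26, and at 800 mm3 at 40.2, 38.1, 46.3 and 46.5 FPKM in CT-26 and 51.1, 46.8, 47.5 and 52.5 FPKM in Colon 26. The models differed by 0.28 (SE 0.06, adjusted p = 0.0063), -0.13 (SE 0.13, adjusted p = 0.44) and 0.15 (SE 0.09, adjusted p = 0.18) at the 3 sizes, and their ranges overlapped at 400 mm3. Its partner Col8a2 was DE at 800 mm3 (log2 fold change 1.86, SE 0.73, adjusted p = 0.053), with overlap, at 0.00750 to 0.132 in CT-26 and 0.0656 to 0.274 FPKM in Colon 26, and this call was lost without CT-26 replicate 2, 3 or 4 (adjusted p = 0.136, 0.126 and 0.12) or Colon 26 replicate 2 (adjusted p = 0.158).

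Col10a1 (chr10:34389981-34397085, plus strand) encodes the collagen of hypertrophic cartilage and relates in structure to Col8a1. Col10a1 in culture was at 0.0299, 0.0344 and 0.0533 FPKM in CT-26 and 0.275, 0.397 and 0.410 FPKM in Colon 26, higher in Colon 26 without overlap (log2 fold change 3.15, SE 0.38, adjusted p = 1.2e-06), with at most 4 counts in a CT-26 culture. At 100 mm3, Col10a1 was at 1.29, 1.42, 8.37 and 12.1 FPKM in CT-26 and 1.26, 0.278, 0.241 and 0.704 FPKM in Colon 26. Here CT-26 was higher without overlap (log2 fold change -3.26, SE 0.85, adjusted p = 0.012), and its replicates 3 and 4 stood far above the others. These 2 tumors were the largest of the size group, at 136 and 146 mm3, and the part of volume was not tested. At 400 mm3, Col10a1 was at 0.834, 0.402, 0.114 and 1.13 FPKM in CT-26 and 0.543, 0.351, 0.0192 and 0.272 FPKM in Colon 26, with overlap (log2 fold change -1.11, SE 0.80, adjusted p = 0.29). At 800 mm3, Col10a1 was at 2.50, 1.63, 1.89 and 2.34 FPKM in CT-26 and 0.797, 0.0876, 0.275 and 0.154 FPKM in Colon 26, with CT-26 higher without overlap (log2 fold change -2.71, SE 0.52, adjusted p = 0.0016). The turn from culture to 100 mm3 was DE (interaction -6.39, SE 1.40, adjusted p = 0.0021). Cartilage and bone markers, 6 genes summed, were at 4.37 to 7.04 FPKM in CT-26 and 3.86 to 5.54 in Colon 26 tumors of 100 mm3, at 4.37 to 9.99 and 3.45 to 10.3 over tumors of all sizes, and at 7.19 to 7.81 and 1.96 to 2.34 in culture, where Comp was at 0 in CT-26. Bglap was at 0 in the Colon 26 tumors of 100 mm3 and Ibsp in the CT-26 tumors of that size. Exons of Col10a1 overlap those of Nt5dc1 by 18 bases.

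Col7a1 (chr9:108953586-108984875, plus strand) encodes the collagen of the anchoring fibrils that fix epidermis to dermis. Col7a1 in culture was at 1.09, 0.773 and 0.916 FPKM in CT-26 and 0.706, 1.0 and 0.720 FPKM in Colon 26, with overlap (log2 fold change -0.20, SE 0.13, adjusted p = 0.18). At 100 mm3, Col7a1 was at 0.516, 0.474, 0.439 and 0.540 FPKM in CT-26 and 1.36, 2.16, 2.12 and 2.0 FPKM in Colon 26. Colon 26 was higher without overlap (log2 fold change 1.91, SE 0.16, adjusted p = 2.6e-05). At 400 mm3, Col7a1 was at 0.237, 0.398, 0.224 and 0.585 FPKM in CT-26 and 0.899, 2.43, 2.91 and 1.03 FPKM in Colon 26, DE without overlap (log2 fold change 2.31, SE 0.47, adjusted p = 0.0038). At 800 mm3, Col7a1 was at 0.55, 0.233, 0.549 and 0.682 FPKM in CT-26 and 0.759, 0.819, 0.711 and 0.586 FPKM in Colon 26, with overlap and not DE (0.45, SE 0.27, adjusted p = 0.19). From culture to 100 mm3 the interaction was 2.13 (SE 0.25, adjusted p = 1.3e-05). Col7a1 rose in Colon 26 (1.27, SE 0.18, adjusted p = 0.00021) and was at -0.91 (SE 0.15, adjusted p = 0.00077), under the minimum, in CT-26. Keratinocyte markers, 6 genes summed, were at 2.42 to 4.03 FPKM in CT-26 and 3.53 to 4.23 in Colon 26 tumors of 100 mm3, and Dsg3 was at 0 in these 8 tumors. They were at 2.06 to 5.08 and 3.09 to 4.15 at 400 mm3 and at 2.39 to 3.24 and 4.24 to 4.79 in culture.

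Col17a1, the transmembrane collagen of hemidesmosomes in skin, was DE at 800 mm3 (log2 fold change -1.19, SE 0.37, adjusted p = 0.02), lower in Colon 26, at 0.0760 to 0.195 FPKM in CT-26 and 0.0431 to 0.0665 in Colon 26. The highest value was that of CT-26 replicate 4, which also had 42.9 FPKM of keratinocyte markers, while the other 11 CT-26 tumors had at most 5.08 and Colon 26 tumors of 800 mm3 3.37 to 4.16. Without that library the fold change of Col17a1 was -0.80, under the minimum.

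Col23a1 (chr11:51289920-51583918, plus strand) encodes a transmembrane collagen. Col23a1 in culture was at 0.0579, 0.0190 and 0.0516 FPKM in CT-26 and 0.00490, 0 and 0.0133 FPKM in Colon 26, and it was not tested there. At 100 mm3, Col23a1 was at 0.0925, 0.433, 0.458 and 0.153 FPKM in CT-26 and 0.532, 0.708, 1.45 and 0.959 FPKM in Colon 26. Colon 26 was higher without overlap (log2 fold change 1.63, SE 0.51, adjusted p = 0.025). At 400 mm3, Col23a1 was at 0.127, 0.492, 0.0503 and 0.964 FPKM in CT-26 and 0.150, 0.749, 1.60 and 0.688 FPKM in Colon 26, with overlap (log2 fold change 0.97, SE 0.87, adjusted p = 0.39). At 800 mm3, Col23a1 was at 0.141, 0.525, 0.742 and 1.40 FPKM in CT-26 and 0.301, 0.259, 0.243 and 0.368 FPKM in Colon 26, and the call was of the opposite direction (log2 fold change -1.34, SE 0.53, adjusted p = 0.054), with overlap. The call at 800 mm3 was lost without CT-26 replicate 4 (-0.77, adjusted p = 0.189) or Colon 26 replicate 2 or 3 (adjusted p = 0.117 and 0.121). The call was also lost in a fit of all 30 libraries (-1.33, adjusted p = 0.114). The change of the model difference between 100 and 800 mm3 was -2.98 (SE 0.80, adjusted p = 0.15) and did not pass the test.

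Col28a1 (chr6:7997808-8192617, minus strand) encodes a collagen with von Willebrand factor domains that is found around peripheral nerves. Col28a1 in culture was at 0.0774, 0.0170 and 0.00990 FPKM in CT-26 and 0, 0 and 0.00600 FPKM in Colon 26, and it was not tested there. At 100 mm3, Col28a1 was at 0.428, 1.20, 0.621 and 0.755 FPKM in CT-26 and 0.438, 0.451, 0.527 and 0.411 FPKM in Colon 26. The models overlapped, with a log2 fold change of -0.76 (SE 0.29, adjusted p = 0.054). At 400 mm3, Col28a1 was at 0.313, 0.689, 0.555 and 0.650 FPKM in CT-26 and 0.309, 0.0447, 0.0923 and 0.342 FPKM in Colon 26, and at 800 mm3 at 0.288, 0.398, 0.285 and 0.321 FPKM in CT-26 and 0.119, 0.540, 0.480 and 0.633 FPKM in Colon 26. It was DE at 400 mm3, lower in Colon 26 (log2 fold change -1.56, SE 0.55, adjusted p = 0.046), with overlap, and this call was lost without CT-26 replicate 2 (adjusted p = 0.103) or Colon 26 replicate 3 (adjusted p = 0.113). The interactions from culture to 100 mm3 of Col23a1 (4.27, SE 1.20, adjusted p = 0.01) and Col28a1 (2.73, SE 1.16, adjusted p = 0.071) passed the test, but no Colon 26 culture held more than 3 counts of either gene, so their sizes depend on the prior count. Without CT-26 culture replicate 1 the interaction of Col28a1 was 1.53 (adjusted p = 0.325), and its call was also lost without Colon 26 culture replicate 1 (adjusted p = 0.164) or 2 (adjusted p = 0.175) and in a fit of all 30 libraries (adjusted p = 0.108). Schwann cell markers, 6 genes summed, were at 3.93 to 12.3 FPKM over CT-26 tumors and 8.93 to 17.9 over Colon 26 tumors, and at 1.73 to 1.95 and 3.36 to 3.81 in culture, where Sox10 was at 0 in each Colon 26 library.

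**Figure D5:**
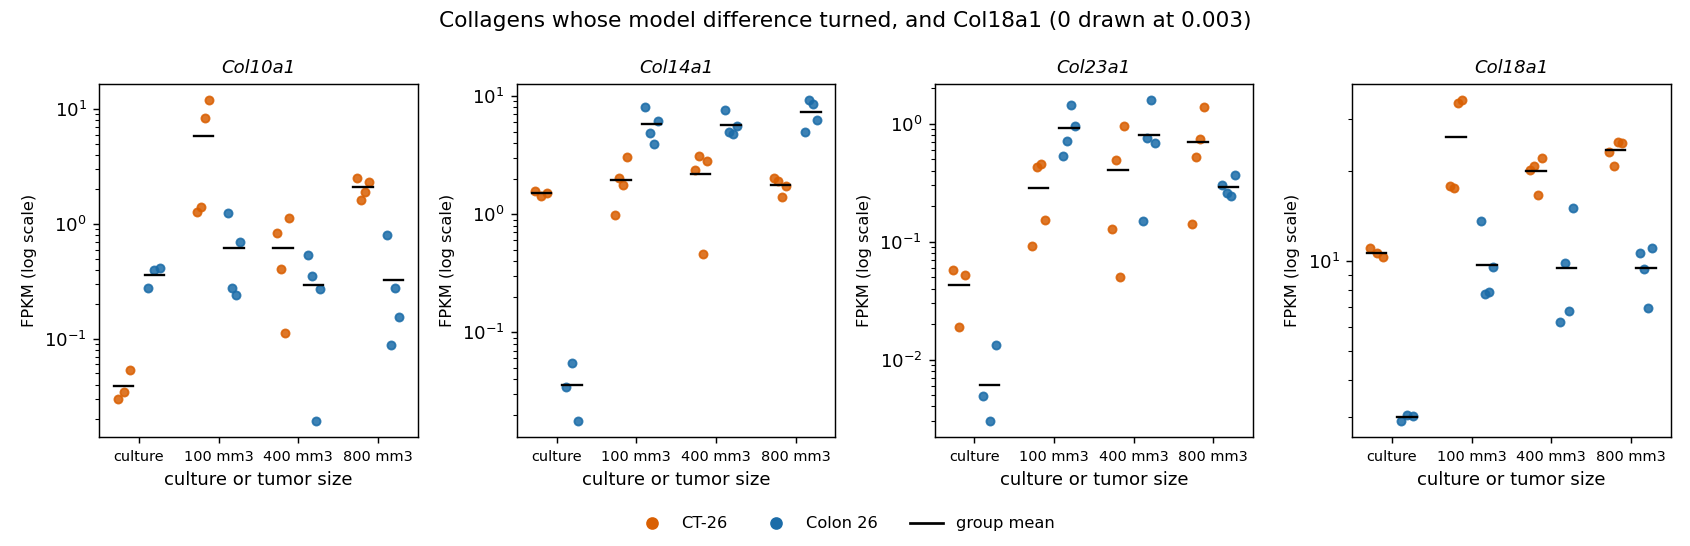
FPKM (vertical axis, log scale) in each library by group for Col10a1, Col14a1, Col23a1 and Col18a1, with CT-26 in orange, Colon 26 in blue and black bars at group means. The order of the models in culture is turned in tumors of 100 mm3 for Col10a1 and Col14a1, while Col18a1 is lower in Colon 26 in every group.

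Col13a1, another transmembrane collagen, had no count in the 6 cultures and was DE in tumors of 100 mm3 (log2 fold change 2.10, SE 0.45, adjusted p = 0.0042) and 400 mm3 (log2 fold change 1.81, SE 0.50, adjusted p = 0.017, with overlap), higher in Colon 26. Its level was 0.0496 to 0.256 FPKM in CT-26 and 0.591 to 0.973 in Colon 26 tumors of 100 mm3.

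Tumors of 100 mm3 were compared with the cultures of their model to find which collagens were higher where host cells are present. In bulk samples, fewer cells of a type and less RNA per cell cannot be told apart. Library numbers of tumors and cultures lie apart, so an effect of batch could also be part of these differences. In CT-26, 25 of 30 collagens tested were DE, 21 higher and 4 lower in tumors, beside 32.2% of all genes tested (22.2% higher and 10.1% lower). In Colon 26, 24 of 33 were DE, 22 higher and 2 lower, beside 26.9% (20.8% higher and 6.11% lower). Median log2 fold changes of the collagens tested were 2.23 in CT-26 and 2.24 in Colon 26, beside 0.06 and 0.05 over all genes. The share of all genes that rose in both models was not computed, so the sharing below cannot be called particular to collagens. Higher in tumors of both models were 17 collagens, 81.0% of the CT-26 list and 77.3% of the Colon 26 list. They were Col1a1, Col3a1, Col5a2, Col5a3, Col24a1 and Col27a1 of the fibrillar class, Col4a2, Col15a1 and Col18a1 of the basement membrane class, the FACIT Col12a1 and Col16a1, and Col6a1, Col6a2, Col6a3, Col6a6, Col23a1 and Col28a1. In CT-26, Col4a1, Col5a1, Col8a1 and Col10a1 were also DE, and in Colon 26, Col6a4, Col7a1, Col11a1, Col13a1 and Col14a1. Of these 9, the difference between the models in the response was itself DE for Col7a1, Col10a1 and Col14a1.

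Among the rises from culture to tumor were those of fibrillar, FACIT and type VI genes that were low in culture. Col3a1 rose by 6.56 (SE 0.29, adjusted p = 9.1e-07) in CT-26 and by 8.44 (SE 0.18, adjusted p = 2.1e-09) in Colon 26 on the log2 scale. Col12a1 rose by 6.02 (SE 0.51, adjusted p = 1.7e-05) and 8.14 (SE 0.20, adjusted p = 3.9e-09). These genes had under 2 FPKM in each culture and over 2 FPKM in each tumor of 100 mm3. Col6a3 rose by 5.46 (SE 0.36, adjusted p = 5.2e-06) and 8.59 (SE 0.14, adjusted p = 6.9e-10), and Col5a2 by 5.57 (SE 0.16, adjusted p = 2.6e-07) and 6.97 (SE 0.07, adjusted p = 2.1e-10). Col1a2, already the leading collagen in culture, differed by 0.80 (SE 0.07, adjusted p = 1.9e-05) and 0.92 (SE 0.05, adjusted p = 3e-07), under the minimum fold change. Col15a1 rose by 8.94 (SE 0.87, adjusted p = 3.7e-05) in CT-26, from cultures with at most 4 counts, and by 7.33 (SE 0.20, adjusted p = 7.8e-09) in Colon 26.

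Where a culture group held at most 3 counts of a gene in each library, folds set the tumor group mean over that floor. They are lower bounds for group means and not for single tumors. Col27a1 was at least 17.9-fold higher in CT-26 and at least 61.7-fold higher in Colon 26 tumors of 100 mm3, and Col6a6 at least 5.98-fold and 14.9-fold. In Colon 26, Col23a1 was at least 67.1-fold, Col13a1 at least 29.0-fold and Col28a1 at least 25.1-fold higher than in culture. Each of these genes stayed at or under 1.6 FPKM in the tumors.

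The calls of some genes near the minimum fold change rested on 1 library. In CT-26 the log2 fold change of Col4a1 was under the minimum at 0.95 without replicate 3 and 0.97 without replicate 4 of the tumors. That of Col5a1 was 1.09 and fell to 0.97 without tumor replicate 4. For Col8a1 it was 1.04, and 0.97 without tumor replicate 2 or 0.99 without culture replicate 3. In Colon 26 the rise of Col4a2 was 1.01, and 0.90 without tumor replicate 1 or 0.96 without culture replicate 1, 0.98 with scaling to library size alone and 0.99 without a filter on low counts.

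A few collagens were lower in tumors than in culture. Col11a2, a chain of type XI collagen, fell by 2.46 (SE 0.23, adjusted p = 3e-05) in CT-26 and by 2.36 (SE 0.15, adjusted p = 9.8e-07) in Colon 26 on the log2 scale, and the FACIT Col20a1 fell by 2.53 (SE 0.21, adjusted p = 1.5e-05) and 1.48 (SE 0.19, adjusted p = 9.3e-05). In CT-26 the FACIT Col9a3 (-1.14, SE 0.19, adjusted p = 0.00075) and the type IV chain Col4a4 (-2.0, SE 0.53, adjusted p = 0.0092) were also lower.

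As tumors grew from 100 to 800 mm3, few collagens were DE. In CT-26, 0 of 30 collagens tested were DE, beside 0% of all genes, and 6 collagens and 1610 genes had an unadjusted p under 0.05. There DESeq2 called 1 collagen, Col28a1, beside 39 of 27607 genes. In Colon 26, 3 of 31 were DE and lower at 800 mm3, beside 1.33% of all genes (0.169% higher and 1.16% lower). They were Col7a1 (log2 fold change -1.42, SE 0.16, adjusted p = 0.0052), Col23a1 (log2 fold change -1.64, SE 0.31, adjusted p = 0.029) and Col13a1 (log2 fold change -1.23, SE 0.27, adjusted p = 0.05). The call of Col13a1 was lost without replicate 2 (adjusted p = 0.123) or 3 (adjusted p = 0.129) of the tumors of 100 mm3, and without replicate 1 (adjusted p = 0.114) or 3 (adjusted p = 0.101) of those of 800 mm3. A trend over log2 tumor volume, fitted to Colon 26 tumors of all sizes, was also run in place of the comparison of 800 with 100 mm3. It is not an adjustment of that comparison for volume. Scaled to an 8-fold volume, the trend was not DE for Col7a1 (-1.28, adjusted p = 0.208), Col23a1 (-1.46, adjusted p = 0.287) or Col13a1 (-0.98, adjusted p = 0.439). A fit of all 30 libraries kept the call of Col7a1 alone. Medians of the collagens tested were -0.28 in CT-26 and -0.31 in Colon 26, beside -0.00 over all genes in both. The change of the model difference between these sizes was DE by edgeR for 0 of 33 collagens, beside 0.0308% of all genes, with 7 collagens and 2031 genes at an unadjusted p under 0.05. For this change DESeq2 called Col7a1 and Col23a1, beside 114 of 29674 genes.

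Skeletal muscle markers, 6 genes summed, moved with these comparisons. They were at 66.2 to 633 FPKM in Colon 26 tumors of 100 mm3 and at 0.197 to 0.874 in those of 800 mm3, where 6 of 6 genes tested were lower. Between the models, 5 of 5 tested were lower in Colon 26 at 800 mm3, and 0 of 6 were DE at 100 mm3. In CT-26 tumors they were at 0.584 to 243, 0.491 to 159 and 5.98 to 127 FPKM at the 3 sizes, and in Colon 26 tumors of 400 mm3 at 0.666 to 1360.1. No culture exceeded 0.396 FPKM, and Tnnt3 was at 0 in each of them. When libraries over 100 FPKM of these markers were left out, a choice made after the data were seen, the calls of Col23a1 (-1.76, adjusted p = 0.14) and Col13a1 (-1.35, adjusted p = 0.209) between 100 and 800 mm3 in Colon 26 were lost with 2 of 4 tumors of 100 mm3 left out, while their log2 fold changes were no smaller in size. Between the models at 100 mm3, the calls of Col10a1 (-2.69, adjusted p = 0.14), Col23a1 (1.83, adjusted p = 0.171) and Col27a1 (1.15, adjusted p = 0.105) were lost with the same direction, 2 of 4 libraries of each model being left out. At 400 mm3 calls were lost for Col18a1 (-0.93, under the minimum) and for Col27a1 (1.33, adjusted p = 0.111). At 800 mm3 they were lost for Col1a1 (0.98, under the minimum) and for Col8a2 (1.51, adjusted p = 0.126). From culture to tumors of 100 mm3 in CT-26, Col5a1 was then at 0.98, under the minimum.

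Fibroblast markers, 10 genes summed, were at 12 to 12.2 FPKM in CT-26 cultures, where Fbln1 was at 0, and at 19.3 to 21 in Colon 26 cultures, where Lum was at 0. In CT-26 tumors of 100, 400 and 800 mm3 they were at 119.7 to 228, 215 to 306 and 186 to 213, and in Colon 26 tumors at 192 to 229, 171 to 191 and 122 to 209. The sum was higher in CT-26 at 400 mm3, without overlap, while the median log2 fold change of the 10 genes was toward Colon 26 at each size, at 0.78, 0.95 and 0.46. Of the 10, 5 were higher and 1 lower in Colon 26 at 100 mm3, 4 higher and 2 lower at 400 mm3 and 4 higher and 1 lower at 800 mm3, beside 13.2%, 14.3% and 14.1% of all genes DE. Pericyte and smooth muscle markers, 6 genes summed, were at 4.62 to 28.8 in CT-26 and 34.7 to 55.8 in Colon 26 tumors of 100 mm3, at 5.42 to 23.4 and 21.8 to 97.9 at 400 mm3 and at 12.9 to 20.5 and 18.3 to 23.4 at 800 mm3. In culture they were at 2.0 to 2.24 and 10.3 to 11.2, with Abcc9 at 0 in CT-26 and Rgs5 and Kcnj8 at 0 in Colon 26. CT-26 tumor replicate 3 at 400 mm3 was the lowest of its group for Col1a1, Col3a1, Col5a2, Col6a1, Col6a2, Col6a3, Col12a1 and Col14a1. Leukocyte markers, 6 genes summed, were at 75.7 to 329 FPKM over CT-26 and 169.5 to 313 over Colon 26 tumors and at 48.6 to 52.5 and 2.78 to 3.65 in culture, where Adgre1 and Cd3e were at 0 in Colon 26. Adipocyte markers, 6 genes summed, were at 12.3 to 70.5 and 6.77 to 67.6 in tumors and 0.298 to 0.479 and 2.53 to 3.36 in culture, where Adipoq and Lep were at 0. The part of these cell types in the collagen levels was not tested.

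Enzymes and receptors of collagens were taken from 3 lists of the pathway. Of 16 folding and hydroxylation genes, 3 of 14 tested were higher in Colon 26 cultures and 0 lower, and in tumors of the 3 sizes 2 of 16, 1 of 15 and 2 of 16 were higher and 0 lower. These shares of 21.4%, 12.5%, 6.67% and 12.5% called were near or below the 22.9%, 13.2%, 14.3% and 14.1% of all genes. P4ha3, a subunit of the prolyl hydroxylase that stabilizes the triple helix, had at most 3 counts in each CT-26 culture and was at least 52.9-fold higher in Colon 26, with 2.92 ± 0.0628 FPKM there (SD, n = 3). Fkbp10, a chaperone of procollagen, was at 26.2 ± 1.17 FPKM in CT-26 and 55.9 ± 2.55 in Colon 26 cultures (SD, n = 3 each), with a log2 fold change of 1.08 (SE 0.04, adjusted p = 3e-13). In tumors of 100 mm3, P4ha3 was at 0.961 ± 0.112 and 5.82 ± 1.35 FPKM (SD, n = 4 each), with a log2 fold change of 2.55 (SE 0.17, adjusted p = 8.2e-06). Colgalt2, which adds galactose to hydroxylysine, was at 0.0550 ± 0.0350 and 0.163 ± 0.0413 FPKM (SD, n = 4 each), with a log2 fold change of 1.52 (SE 0.49, adjusted p = 0.029).

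Of 13 genes of procollagen processing and crosslinking, 5 of 7 tested were higher in Colon 26 cultures, and 5, 4 and 4 of 11 in tumors of the 3 sizes, with 0 lower in each, beside 10.6% of all genes higher in culture and 6.17%, 6.48% and 6.5% in tumors. Loxl1, a lysyl oxidase that crosslinks collagen and elastin, was at 0.117 ± 0.0207 FPKM in CT-26 and 9.30 ± 0.330 in Colon 26 cultures (SD, n = 3 each), with a log2 fold change of 6.29 (SE 0.11, adjusted p = 4.8e-17). Its relative Loxl3 was at 5.21 ± 0.220 and 17.4 ± 1.04 FPKM (SD, n = 3 each), with a log2 fold change of 1.73 (SE 0.05, adjusted p = 1e-14). In tumors of 100 mm3, Loxl1 was at 5.21 ± 0.843 and 23.4 ± 1.5 FPKM (SD, n = 4 each), with a log2 fold change of 2.12 (SE 0.11, adjusted p = 1.7e-06). Pcolce2, an enhancer of procollagen cleavage, was at 0.0893 ± 0.0290 and 0.324 ± 0.158 FPKM (SD, n = 4 each), with a log2 fold change of 1.80 (SE 0.41, adjusted p = 0.0062).

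Of 10 collagen receptors, 2 of 7 tested were called higher in Colon 26 cultures and 0 lower. Yet the median log2 fold change of the 7 was -0.37, and each had an unadjusted p under 0.05 by edgeR. Of 10 tested in tumors, 1, 2 and 3 were higher and 1 lower at each size, with medians of 0.11, -0.02 and 0.18. Of all genes, 22.9% were DE in culture and 13.2%, 14.3% and 14.1% in tumors, and the 28.6% of receptors in culture was near that share. Mrc2, which takes up collagen fragments, was at 0.961 ± 0.0944 FPKM in CT-26 and 21.3 ± 1.11 in Colon 26 cultures (SD, n = 3 each), with a log2 fold change of 4.46 (SE 0.06, adjusted p = 2.1e-18). Itga1, a collagen-binding integrin subunit, had at most 3 counts in each CT-26 culture and was at least 14.4-fold higher in Colon 26, at 0.171 ± 0.0308 FPKM (SD, n = 3). In tumors of 100 mm3, the integrin subunit Itga11 was higher in Colon 26 (log2 fold change 2.09, SE 0.38, adjusted p = 0.0019) at 0.0513 ± 0.0262 and 0.233 ± 0.0724 FPKM (SD, n = 4 each). Itga10, also a collagen-binding subunit, was lower (log2 fold change -2.42, SE 0.24, adjusted p = 6.3e-05) at 2.74 ± 0.774 and 0.527 ± 0.143 FPKM (SD, n = 4 each). Against culture, folding genes were higher in tumors of 100 mm3 for 3 of 15 in CT-26 and 4 of 16 in Colon 26, processing genes for 7 of 9, with 1 lower, and 7 of 11, and receptors for 5 of 9 and 4 of 10, beside 22.2% of all genes higher in CT-26 and 20.8% in Colon 26. The folding genes were thus near the share of all genes.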

How the data were processed

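RNA-seq of 30 libraries was grouped by model, tissue and tumor size from the labels. Replicate numbers follow the order of the samples within a group, since the labels carry none. Gene counts were made by the authors in Array Studio with the Ensembl.R78 annotation. The aligner, genome build and handling of strand are not given in the sources used here. The deposited estimated counts are not normalized, and 23.0% of their non-zero values were not whole, so rounding came first, the designs having assumed raw counts. The deposited FPKM were used for levels. The number of columns left unused was 0. Symbols and positions came from GENCODE vM21 on GRCm38, which held 52207 of 53431 identifiers (97.7%).

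Genes were compared by edgeR (version 4.0.16, R 4.3.3) with a quasi-likelihood F test on TMM-normalized counts, filterByExpr and Benjamini-Hochberg adjustment over all genes tested, with the libraries of the comparison alone. The thresholds are those of the study, an adjusted p of 0.1 and an absolute log2 fold change of 1. SE values were derived from the F statistic. The floor was 3 counts per library, and bounds against a group with no library above it set the mean of the other group over this floor. They cover no spread between libraries and leave no margin where a library reached 3 counts. The script was tested on simulated counts. Tables and figures used Python 3.11.15, numpy 2.4.6, pandas 2.3.3 and matplotlib 3.10.9. Promoter windows of RefSeq matched 35 of 44 collagens.

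Collagens DE in a comparison are named there. Values of each library are given for the 3 members of each class with the highest mean FPKM, those DE in at least 3 model comparisons, and those DE in both directions or in an interaction. Pathway genes are named by the 2 largest changes in each direction. The members and lists were chosen with earlier results of these data known. The alternatives were other tools (DESeq2 1.42.0, which the study used in version 1.24.0, and limma 3.58.1 on log2 FPKM with 1 or 0.1 added). Other scaling (RLE factors or library size alone) and other filters (none, or 10 counts in each library) were also used. Other thresholds were an adjusted p of 0.05, or any fold change. A fit of all 30 libraries and the omission of single replicates were added. For growth, a trend over log2 tumor volume in all tumors of a model took the place of the comparison of sizes. Leaving out libraries over 100 FPKM of muscle markers was chosen after seeing the data.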

Additional observations from a re-analysis of the deposited data

Results flagged for a closer look

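A single library was flagged as outlying relative to the spread of its group in 4 of 144 groups tested for collagen levels and class sums. This is fewer than chance gives at about 1 in 20, or 7.2. Col1a2 was at 407 FPKM in Colon 26 tumor replicate 2 of 800 mm3, the highest of its group. Col4a2 was at 48.5 FPKM in CT-26 tumor replicate 2 of 800 mm3, the lowest of its group, though close to the others at 52.6, 52.5 and 53.0 FPKM. The sum of all collagens was 1021 FPKM in 1 CT-26 tumor of 800 mm3, and the sum of the collagens outside the 3 named classes was 215 FPKM in 1 Colon 26 tumor of 400 mm3, each the highest within its own group of 4.

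The difference between the models changed from culture to tumors of 100 mm3, by edgeR's test of the interaction, for 14 collagens. Toward Colon 26 the change on the log2 scale was 6.88 for Col14a1, 4.27 for Col23a1, 3.08 for Col6a3, 2.73 for Col28a1, 2.13 for Col7a1, 2.07 for Col12a1, 1.84 for Col3a1, 1.35 for Col5a2 and 1.23 for Col5a3. Toward CT-26 it was -6.39 for Col10a1, -2.66 for Col6a2, -1.55 for Col6a1, -1.28 for Col1a1 and -1.05 for Col16a1. The values of Col23a1 and Col28a1 rest on Colon 26 cultures with at most 3 counts and depend on the prior count. An effect of batch could be part of each change, since cultures and tumors differ in their ranges of library numbers.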

How the results depend on the processing

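Of 2169 values of the 116 collagen calls recomputed under the alternatives, 2031 kept their direction and call, 136 lost the call and 2 were reversed. The calls of 57 kept both in every alternative. Limma on log2(FPKM + 1), which understates changes of low genes, ended 45 calls and called 7 collagens between the cultures, 8 and 7 between tumors of 100 and 800 mm3, 13 between culture and tumors in Colon 26, 0 from 100 to 800 mm3 in Colon 26 and 9 in the interaction with culture. Over all genes, in the same order, it called 1519 of 14334, 861 of 15406, 914 of 15521, 1946 of 15946, 62 of 15404 and 1255 of 16501. Without a minimum fold change, 23 were called at 800 mm3 and 5 from 100 to 800 mm3 in Colon 26, beside 9213 of 15521 and 1028 of 15404 genes. With at least 10 counts in every library, 15 were called between culture and tumors in Colon 26, beside 1818 of 12724 genes. From 100 to 800 mm3 in Colon 26, all 30 libraries in a single fit called 1 and the trend over tumor volume 0. These fits called 100 of 17139 and 63 of 15666 genes. Leaving out libraries rich in muscle markers called 1 collagen in that comparison, beside 114 of 15858 genes. DESeq2 called 1 in CT-26 from 100 to 800 mm3 and 2 in the interaction of model and size, beside 39 of 27607 and 114 of 29674 genes. The interaction of Col28a1 was reversed by limma on log2(FPKM + 1) (-0.20, adjusted p = 0.287) and on log2(FPKM + 0.1) (-0.17, adjusted p = 0.729). The fit of all 30 libraries called 11 in the interaction with culture, beside 2868 of 17139 genes. The cause was not tested.

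With each replicate left out in turn, the collagens called numbered 12 to 15 between cultures, 11 to 15, 10 to 15 and 8 to 16 between tumors of 100, 400 and 800 mm3, 21 to 28 and 23 to 25 between culture and tumors in CT-26 and Colon 26, 0 to 0 and 2 to 4 from 100 to 800 mm3, 12 to 16 in the interaction with culture and 0 to 3 in that with size. Over all genes, 3383 to 3595 were called between cultures and 2045 to 2269, 2152 to 2466 and 2254 to 2479 between tumors of the 3 sizes. Between culture and tumors these fits called 4638 to 5253 and 3993 to 4486 genes, and from 100 to 800 mm3 0 to 2 and 150 to 290. In the interactions they called 2761 to 2985 and 2 to 128 genes. These fits tested 14383 to 16896 genes. Of the 116 collagen calls, 21 were lost in at least 1 fit without a replicate. No paired analysis was possible because the labels carry no replicate numbers. Collagens under about 0.1 FPKM rest on few counts, which limits the precision of their fold changes.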
